A study of Mus musculus with 128 samples.

Results

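Fatty acid oxidation in mouse liver was followed through 35 genes out of 40824 gene rows in a read-count table. The genes came from a list written from general knowledge, with earlier results of these data known. By the main place where their proteins act, 16 are mitochondrial, 13 peroxisomal and 6 cytosolic, of the plasma membrane or of more than 1 compartment. The table holds 4264 single cells, sequenced with the full-length Smart-seq3xpress method and summed here into 106 libraries, and 22 libraries of open chromatin (ATAC-seq) accompany it. Wild-type B6C3F1 livers (C57BL/6 crossed with C3H) gave 18 libraries of hepatoblasts, the embryonic precursors of hepatocytes, and hepatocytes between embryonic days E11.5 and E19.5.

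The embryonic and young C57BL/6 lines carried Cre recombinase in every library used, controls included. In the Foxa3-Cre line, controls named Pard3WT carried Foxa3-Cre alone, as far as the labels state, and Pard3HMKO animals carried Foxa3-Cre with Pard3 fl/fl alleles. They were sampled at E11.5, E13.5, E15.5, E17.5, E19.5, on the day of birth (P0) and at postnatal day 14 (P14). YapWT was the Foxa3-Cre control of the Yap line. YapHMKO animals carried Foxa3-Cre and Yap fl/fl, and a double line carried both floxed genes. At E17.5 a second Pard3 line was labelled with Alfp-Cre, in its Pard3WT controls as well as its Pard3HMKO animals. Foxa3-Cre is active in endoderm, which includes gut and pancreas, and Alfp-Cre in cells of the hepatic lineage. In the culture experiment, E15.5 livers of Foxa3-Cre lines were kept for 2 days with no compound or with PD, U0126, TPPB or TPPB+PD. The labels give no doses and do not spell out PD, and U0126 is known as an inhibitor of the kinase MEK and TPPB as an activator of protein kinase C. At postnatal day 60 (P60), all adults carried Pard3 fl/fl. Those named Pard3HMKO are labelled as injected with AAV-Tbg-Cre, a virus whose promoter is active in hepatocytes, with a time of 7 days, and those named Pard3WT were labelled as controls with no injection stated. Adults were sampled on days 0, 2 and 7 after removal of most of the liver (partial hepatectomy). Pard3 encodes a scaffold protein of epithelial polarity, and Yap1 encodes a transcriptional coactivator of the Hippo pathway.

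Hepatocytes burn fatty acids in mitochondria and in peroxisomes. A long-chain fatty acid is first joined to coenzyme A, enters the mitochondrion on carnitine, and is shortened in a cycle of enzymes that passes electrons through ETF and its dehydrogenase to the respiratory chain. Peroxisomes shorten very-long-chain and branched acids by a similar cycle whose first enzyme makes hydrogen peroxide, which catalase removes. Birth ends the supply of glucose through the placenta and begins feeding on fat-rich milk, and the nuclear receptor PPARα, encoded by Ppara, is the best-known activator of both sets of genes in liver.

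The promoters of 6 members are printed because the expression values below turn on them or because they hold a near match to an element. That element, which PPARα binds, is a direct repeat of the half-site AGGTCA with 1 base between the copies. The match has 1 mismatch in Acot12 and 2 in Acot4, Cat and Etfa, and binding was not measured. The promoters are RefSeq sequences of build GRCm38.p6, 250 bases before the annotated start. Capitals mark every match to AGGTCANAGGTCA on either strand with at most 2 mismatches.
Acot2 (chr12:83987611-83987860, plus strand): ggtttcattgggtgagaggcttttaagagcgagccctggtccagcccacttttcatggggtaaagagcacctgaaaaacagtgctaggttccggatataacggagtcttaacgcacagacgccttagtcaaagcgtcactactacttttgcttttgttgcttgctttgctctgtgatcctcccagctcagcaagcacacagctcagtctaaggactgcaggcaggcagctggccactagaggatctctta
Ehhadh (chr16:21787835-21788084, minus strand): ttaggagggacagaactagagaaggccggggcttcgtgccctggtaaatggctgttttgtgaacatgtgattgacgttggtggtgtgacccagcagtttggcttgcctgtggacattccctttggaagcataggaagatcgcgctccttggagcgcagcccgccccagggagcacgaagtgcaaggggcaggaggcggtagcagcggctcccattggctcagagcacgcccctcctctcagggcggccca
Acot4 (chr12:84038129-84038378, plus strand): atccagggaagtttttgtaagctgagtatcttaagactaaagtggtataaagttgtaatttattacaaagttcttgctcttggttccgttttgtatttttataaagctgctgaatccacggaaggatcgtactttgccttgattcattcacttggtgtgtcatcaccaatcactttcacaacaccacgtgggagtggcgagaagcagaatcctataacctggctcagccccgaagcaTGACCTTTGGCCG
Acot12 (chr13:91741271-91741520, plus strand): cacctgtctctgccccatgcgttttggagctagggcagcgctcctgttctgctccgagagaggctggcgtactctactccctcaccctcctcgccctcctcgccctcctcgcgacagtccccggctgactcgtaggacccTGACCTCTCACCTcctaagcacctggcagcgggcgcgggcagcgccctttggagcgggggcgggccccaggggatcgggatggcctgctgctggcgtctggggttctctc
Cat (chr2:103485154-103485403, minus strand): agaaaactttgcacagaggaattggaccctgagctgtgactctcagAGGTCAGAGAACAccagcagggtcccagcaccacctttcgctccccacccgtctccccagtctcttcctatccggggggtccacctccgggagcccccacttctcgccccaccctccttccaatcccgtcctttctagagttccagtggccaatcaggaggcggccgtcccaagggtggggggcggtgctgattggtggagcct
Etfa (chr9:55512244-55512493, minus strand): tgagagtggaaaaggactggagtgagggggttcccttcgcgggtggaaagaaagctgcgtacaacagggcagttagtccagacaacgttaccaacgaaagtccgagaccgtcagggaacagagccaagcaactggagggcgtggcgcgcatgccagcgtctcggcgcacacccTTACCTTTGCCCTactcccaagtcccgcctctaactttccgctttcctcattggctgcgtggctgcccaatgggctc
Start windows of 300 bases, 250 before and 50 after the start, were found for 32 members in 35 windows. Shares of members count genes with a match in any of their windows, while shares of the genome count single windows. The direct repeat was matched in the windows of 5 of these 32 members (15.62%), namely Acot12, Acot4, Cat, Etfa and Slc25a20, and in 3.86% of 32815 windows in the genome. The exact half-site AGGTCA, which lies within the repeat, was found in 7 members (21.88%) and in 16.26% of all windows. The HNF4A motif CAAAGTCCA was found in 1 member, Abcd3 (3.12%), and in 0.48% of all windows. No match was found in the windows printed for Acot2 and Ehhadh, which says only that these letters are not there.

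Chromatin at these starts was open in most members wherever it was profiled. The 22 ATAC libraries, from E17.5 livers of the Pard3 and Yap lines and from Pard3WT and Pard3HMKO cultures, held between 24270 and 45898 peaks each, called per library. A peak touched any start window of 28 to 29 of the 32 members per library, while 30.4% to 39.0% of all start windows, counted singly, held a peak. In all 22 libraries a peak was present at 25 members, of which 11 were among 14 mitochondrial, 10 among 12 peroxisomal and 4 among 6 other members. The promoter of Acot2 printed above held a peak in each of the 22 libraries, and so did those of Ehhadh, Cat and Etfa. Acot1 held one in 20 libraries and Acot4 in 19. No library had a peak at the starts of Acadm, Etfdh or Acot3. Within 1000 bases of those starts Acot3 held a peak in 6 libraries, and Acadm and Etfdh held none.

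Depth ranged from 4506130 to 86188713 reads and from 7 to 133 cells per library, with a median of 622917 reads and 7548.5 detected genes per cell, and no cell column was repeated or identical to another. All 8 genes of a hepatocyte marker list had reads in every library. Cells with reads for at least 50% of another cell type's markers made up 36.1% of all cells, but in only 37 cells did such markers take over 1% of reads. The labels describe sorting of gut endoderm rather than liver in the extraction protocol, and this mismatch was not resolved. Pard3 reads were higher in Pard3HMKO libraries at P0 (37 to 44.3 CPM, reads scaled to library size, against 34 to 35.1 in Pard3WT). At E17.5 they were higher too, at 25.5 to 40.1 against 10.9 to 16.9 CPM with Foxa3-Cre. With Alfp-Cre they were at 44.3 to 48.5 against 24 to 33.8 CPM, and at E19.5 at 44.4 to 45.7 against 25.2 to 31.6. They were lower at E11.5 (32.4 to 32.9 against 39.6 to 42.8 CPM), E13.5 and P14. In culture they were lower untreated (64.75 to 76.22 against 82.75 to 110.7 CPM) and with PD (79.1 to 79.63 against 113.4 to 120.9). The genotypes overlapped at E15.5, with U0126 and in adults on days 2 and 7. On adult day 0 Pard3HMKO was higher, at 38.33 to 48.02 against 33.74 to 35.95 CPM. Counts over the whole gene do not test the deletion of a part of it. Yap1 was low in E15.5 libraries of the YapHMKO line, at 0.199 to 4.68 CPM against 67.8 to 92.3. At E17.5 the libraries labelled YapHMKO held 43.6 to 45.2 CPM against 16.49 to 18.7, and those labelled Pard3HMKO YapHMKO held 38.3 to 42.2 against 16.1 to 18.1 in Pard3WT YapWT, which goes against both labels. Groups held 2 libraries unless stated. No label says that these came from separate animals, so the p-values cover only how far these samples spread, and that spread may be technical.

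Levels below are CPM scaled by TMM factors. A member was called higher or lower at an adjusted p below 0.05 in edgeR's quasi-likelihood test, with Benjamini-Hochberg adjustment over all genes tested, and all 35 members entered each fit. Acaa1a and Acaa1b, and likewise Acot1, Acot2, Acot3 and Acot4, are close paralogs, and the counting may have split shared reads between them, so their separate levels are uncertain. In these pooled libraries, fewer expressing cells and less RNA per cell cannot be told apart.

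As wild-type livers aged from E11.5 to E19.5, most members rose. An age slope above 0 was called for 26 of the 35 and a slope below 0 for 1, while of all 15662 genes tested 18.5% had a called slope above 0 and 17% one below 0. The median slope of the members was 0.18 log2 units per day, and that of all genes -0.0061. Rising members were 13 of 16 mitochondrial, 9 of 13 peroxisomal and 4 of 6 other genes, and the median slopes were 0.17 for mitochondrial and 0.17 for peroxisomal members. No slope was called for Acot2, Cpt2, Hadh, Acot3, Acot8, Abcd3, Crot and Slc22a5.

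Among the enzymes of the mitochondrial cycle, Acadm, the medium-chain acyl-CoA dehydrogenase, held 139 and 137 CPM at E11.5 and 228 and 228 at E13.5. It then held 247, 207 and 237 at E15.5, 690.4 and 686 at E17.5 and 904 and 864 at E19.5, a slope of 0.37 ± 0.04 (SE; edgeR adjusted p = 3.37e-08). The libraries of E17.5 and E19.5 lay above all earlier ones among these stages. Decr1, a reductase needed for unsaturated fatty acids, had a slope of 0.35 ± 0.04 (SE; edgeR adjusted p = 5.3e-07). Etfdh, the dehydrogenase that takes electrons from ETF, went from 66.2 and 58 CPM at E11.5 to 357 and 333 at E19.5, a slope of 0.29 ± 0.02 (SE; edgeR adjusted p = 2.73e-09). The 2 steepest slopes were peroxisomal, those of Acaa1b and Pex11a. Acaa1b, a peroxisomal thiolase, held 2.58 and 2.89 CPM at E11.5, 29.7, 25 and 44.2 at E15.5 and 124 and 131 at E19.5, a slope of 0.77 ± 0.05 (SE; edgeR adjusted p = 1.37e-10). For Ehhadh, the bifunctional enzyme of the middle steps in peroxisomes, the level was 15.1 and 15.4 CPM at E11.5, 71.3, 74.8 and 46.5 at E15.5 and 166 and 161 at E19.5, a slope of 0.50 ± 0.04 (SE; edgeR adjusted p = 3.14e-09). Pex11a, which acts in peroxisome division, had a slope of 0.69 ± 0.12 (SE; edgeR adjusted p = 0.000168) although its level was lower at E13.5 (1.31 and 1.46 CPM) than at E11.5 (4.05 and 4.05 CPM). For each of these genes both E19.5 libraries lay above both E11.5 libraries.

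Of the members placed outside or in both compartments, Ech1, an isomerase for unsaturated acyl-CoAs, had a slope of 0.50 ± 0.03 (SE; edgeR adjusted p = 1.26e-10) and Acsl1, the main long-chain acyl-CoA synthetase of liver, one of 0.37 ± 0.02 (SE; edgeR adjusted p = 6.48e-11). Eci2, another isomerase, had a slope of 0.27 ± 0.03 (SE; edgeR adjusted p = 3.37e-08). Only Acot1, a cytosolic thioesterase that releases free fatty acid from acyl-CoA, had a called slope below 0, at -0.17 ± 0.04 (SE; edgeR adjusted p = 0.000621), from 78.5 and 65.7 CPM at E11.5 to 25.7 and 28.4 at E19.5. Its mitochondrial paralog Acot2 followed no straight line. It held 419.8 and 442 CPM at E11.5, 1277 and 1117 at E13.5, 776, 668 and 884 at E16.5, 52.7 and 61 at E17.5 and 12.7 and 8.39 at E19.5. Its slope was -0.42 ± 0.20 (SE; edgeR adjusted p = 0.101), which missed the threshold. Genes of the same pathways outside the 35 rose with age too: 12 of 14 for mitochondrial entry, oxidation and ketone bodies, and 23 of 36 for peroxisomes, with 1 lower in each. Cpt1a, the carnitine palmitoyltransferase that controls mitochondrial entry, had a slope of 0.58 ± 0.06 (SE; edgeR adjusted p = 1.21e-07). For Ppara the slope was 0.70 ± 0.06 (SE; edgeR adjusted p = 1.91e-09). The E15.5 and E16.5 libraries, with 3 per stage, held 4506130 to 7965011 reads. The rise was not steady, since the median log2 level per library relative to E11.5 was lower at E15.5 than at E14.5. Mitochondrial medians were 0.76 and 0.65 at E14.5 and 0.51, 0.58 and 0.57 at E15.5. Peroxisomal medians were 0.55 and 0.69 at E14.5 and 0.48, 0.54 and 0.52 at E15.5. What sets E15.5 apart was not tested.

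**Figure D1:**
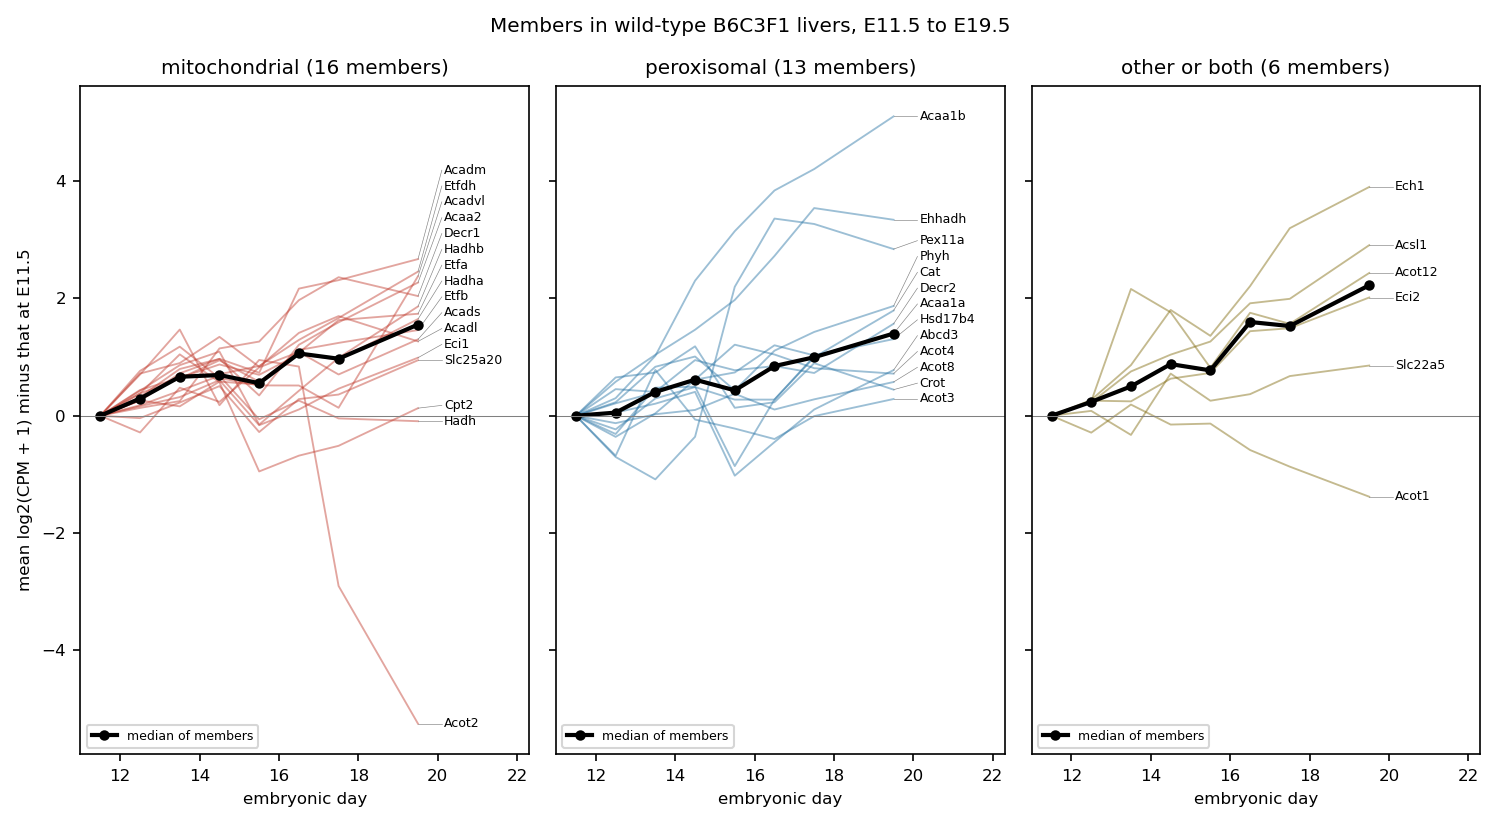
Change with age of each member in wild-type B6C3F1 liver, as the mean log2(CPM + 1) of a stage minus that at E11.5, with mitochondrial, peroxisomal and other members in separate panels and the median of each panel in black. Most lines climb, while Acot2 drops after E16.5 and Acot1 falls.

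Birth in Foxa3-Cre controls (Pard3WT) brought a further rise, with a larger median fold change among peroxisomal than among mitochondrial members. From E19.5 to P0, 28 of the 35 members rose and 1 fell, against 7.23% of 18572 genes higher and 7.17% lower. The median log2 fold change was 1.06 over the members and 0.00 over all genes. It was 1.70 over the 13 peroxisomal members, of which 11 rose, and 0.84 over the 16 mitochondrial members, of which 13 rose. The medians describe the lists, and no test compared the compartments. A second summary, the median log2 level per library relative to E11.5 controls, did not show the contrast. Its peroxisomal value exceeded the mitochondrial one by 0.67 and 0.83 at E19.5 and by 0.65 and 0.57 at P0.

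The largest mitochondrial rise was that of Acot2, a matrix thioesterase, from 59.8 and 88.6 CPM at E19.5 to 976 and 777 at P0, 11.8-fold (log2 fold change 3.56, SE 0.21, edgeR adjusted p = 6.15e-15). Slc25a20, the carrier that brings acylcarnitine through the inner membrane, rose from 47.5 and 54.1 to 146 and 172 CPM (log2 fold change 1.64, SE 0.16, edgeR adjusted p = 1.13e-09). Etfdh rose from 178 and 157 to 455 and 496 CPM (log2 fold change 1.505, SE 0.14, edgeR adjusted p = 4.38e-10). Acadm was the member that fell, from 638 and 637 to 469.8 and 458 CPM (log2 fold change -0.46, SE 0.15, edgeR adjusted p = 0.0304), a call that was lost without any 1 of these 4 libraries. In peroxisomes, Acaa1b rose 10.7-fold, from 41.6 and 43.6 to 460 and 450.5 CPM (log2 fold change 3.42, SE 0.19, edgeR adjusted p = 2.81e-15). Ehhadh rose 9.48-fold, from 146 and 155 to 1500 and 1348 CPM (log2 fold change 3.25, SE 0.22, edgeR adjusted p = 3.52e-13). Acot3, a peroxisomal thioesterase, rose from 9.92 and 6.58 to 67.2 and 61.6 CPM (log2 fold change 2.97, SE 0.36, edgeR adjusted p = 9.72e-08). The 2 libraries of P0 lay above both of E19.5 in each of these rises. Acot1, Eci2 and Ech1 rose by 2.28 ± 0.18 (SE; edgeR adjusted p = 4.27e-12), 1.33 ± 0.17 (SE; edgeR adjusted p = 3.32e-07) and 1.06 ± 0.14 (SE; edgeR adjusted p = 9.67e-07) on the log2 scale. Outside the members, Cpt1a rose by 3.44 ± 0.28 (SE; edgeR adjusted p = 7.95e-11), while Ppara itself differed by -0.02 ± 0.23 (SE; edgeR adjusted p = 1) and was not called. Of the wider lists, 8 of 14 genes for entry, oxidation and ketone bodies and 15 of 36 peroxisome genes rose, and 0 and 3 fell. Over the same step the summed markers of hepatocytes, in CPM without TMM, went from 244339 to 246014 to 176492 to 183766, and those of erythroid cells, with reads for 11 of 11 genes in every library, from 465 to 2241 to 2954 to 4408. What these markers contribute to the rises was not tested.

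Between P0 and P14 in the same line, 20 members fell and 4 rose, against 8.32% of genes higher and 11.1% lower; this comparison shares the P0 libraries with the previous one. The members' median log2 fold change was -0.56 and that of all genes 0.00. A pair of thioesterases, Acot1 and Acot3, fell furthest, and without cells marked for another cell type the count of 24 moved to 15. Acot1 went from 162 and 159.9 CPM at P0 to 1.75 and 1.98 at P14 (log2 fold change -6.43, SE 0.22, edgeR adjusted p = 3.34e-21). Acot3 held 8.94 and 10.1 CPM at P14 (log2 fold change -2.76, SE 0.35, edgeR adjusted p = 2.28e-07) and Acot2 294 and 247 CPM (log2 fold change -1.70, SE 0.19, edgeR adjusted p = 1.89e-08). Ehhadh fell to 216 and 230.5 CPM (log2 fold change -2.67, SE 0.22, edgeR adjusted p = 1.39e-11), above its E19.5 libraries. Cat, the gene of catalase, went the other way, from 622 and 569 to 2027 and 2149 CPM (log2 fold change 1.81, SE 0.11, edgeR adjusted p = 1.91e-14). Acot12, a cytosolic acetyl-CoA hydrolase, and Decr2, the peroxisomal counterpart of Decr1, rose by 1.17 ± 0.31 (SE; edgeR adjusted p = 0.00505) and 0.53 ± 0.14 (SE; edgeR adjusted p = 0.00748), but the call of Acot12 was lost without P0 replicate 1 and that of Decr2 without P0 replicate 2 or P14 replicate 1. The fourth rise, that of Eci2 (0.51 ± 0.17, edgeR adjusted p = 0.0289), was lost without any 1 of the 4 libraries. Erythroid markers summed to 263 to 695 CPM at P14, hepatocyte markers to 150775 to 154842, and endothelial markers to 37.6 to 52.9 against 10.6 to 15.1 at P0, and their part was not tested.

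In Pard3HMKO livers the rise at birth was not seen. From E19.5 to P0, 0 of 35 members rose and 11 fell, against 1.05% of genes higher and 3.13% lower, with a median of -0.25 over the members and 0.00 over all genes. Acot2 fell from 179.7 and 220.3 to 102 and 107 CPM (log2 fold change -0.93, SE 0.19, edgeR adjusted p = 0.00186), a call that was lost without E19.5 Pard3HMKO replicate 2. Acadm fell from 390.4 and 400.3 to 232 and 232 CPM (log2 fold change -0.77, SE 0.15, edgeR adjusted p = 0.000937), and Acaa2, the mitochondrial thiolase of the last step, fell from 932 and 981 to 618 and 619 CPM (log2 fold change -0.63, SE 0.08, edgeR adjusted p = 3.5e-06). Ehhadh held 68.9 and 62.3 CPM before and 90.6 and 68.6 CPM after birth, with overlapping libraries. Decr2, Cat and Ech1 fell by 0.82, 0.69 and 0.99 on the log2 scale, with edgeR adjusted p of 0.000512, 8.67e-05 and 2.53e-05. Cpt1a differed by -0.01 ± 0.27 (SE; edgeR adjusted p = 1) and was not called, while Ppara fell, at -0.95 ± 0.23 (SE; edgeR adjusted p = 0.0133). Hepatocyte markers went from 239225 to 247199 to 179014 to 192913 CPM over this step and the 11 erythroid markers from 753 to 1072 to 2276 to 7605, in the same directions as in Pard3WT, and their part in the falls was not tested.

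The change at birth itself differed between genotypes for 28 members, all lower in Pard3HMKO, against 4.42% of genes higher and 5.82% lower in this test of the difference. The median difference of log2 fold changes was -1.31 over the members and -0.07 over all genes. It was -4.49 ± 0.28 (SE; edgeR adjusted p = 1.4e-13) for Acot2, -3.87 ± 0.26 (SE; edgeR adjusted p = 8.32e-13) for Acaa1b and -2.97 ± 0.30 (SE; edgeR adjusted p = 5.03e-09) for Ehhadh. For the acylcarnitine carrier Slc25a20 it was -1.55 ± 0.22 (SE; edgeR adjusted p = 4.89e-06) and for Etfdh -1.39 ± 0.20 (SE; edgeR adjusted p = 3.81e-06). The members not called were Acot8, Slc22a5, Acot12, Pex11a, Etfa, Hadhb and Acadm.

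**Figure D2:**
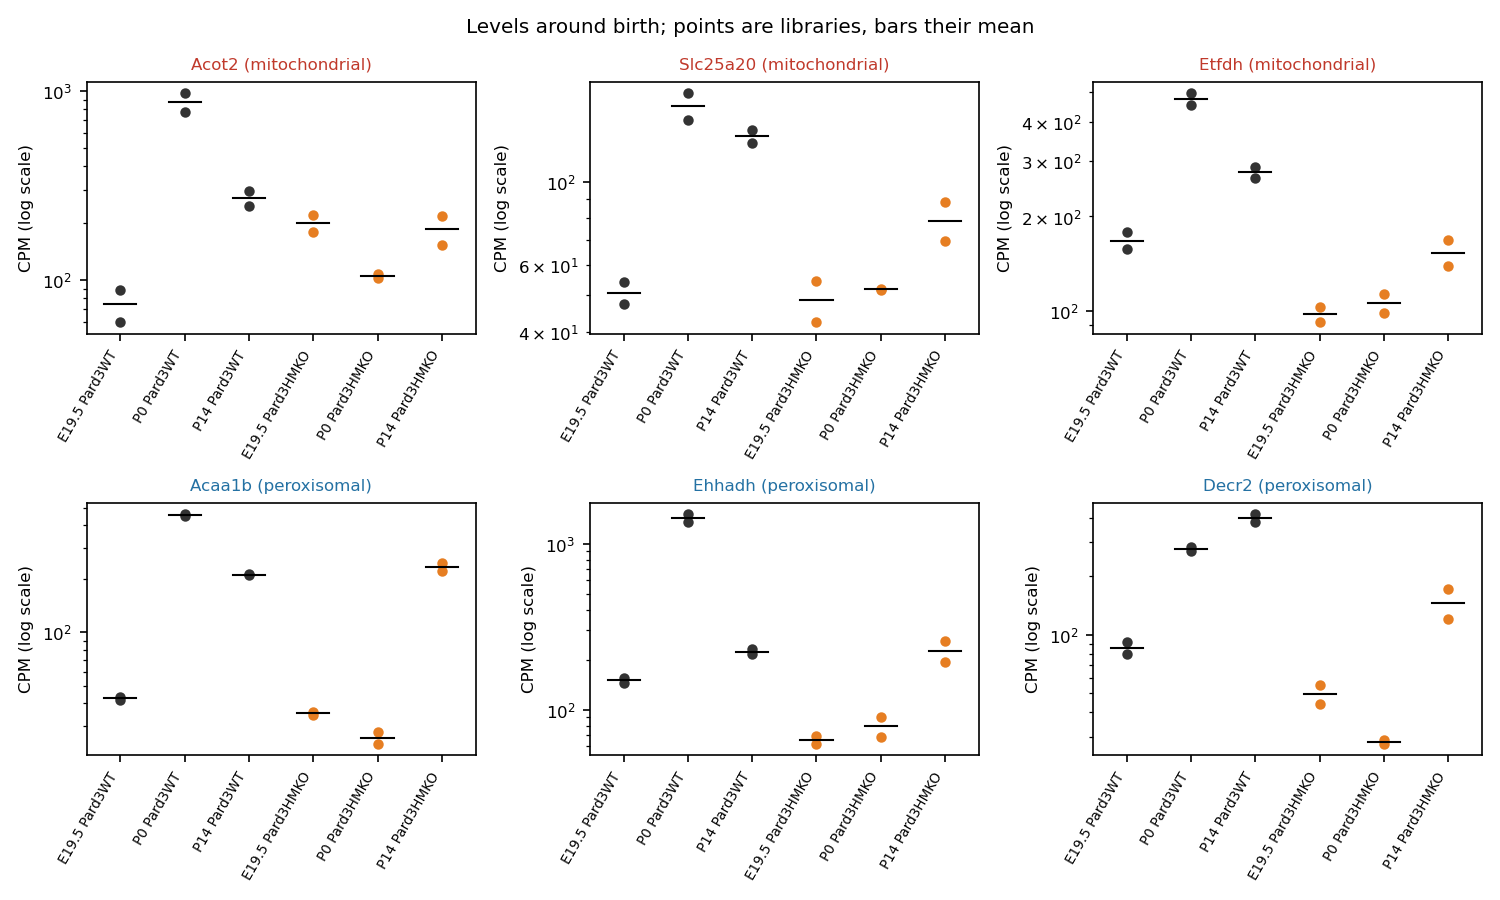
CPM of 6 members around birth on a log axis, for Foxa3-Cre Pard3WT (grey) and Pard3HMKO (orange) at E19.5, P0 and P14, with a point per library and a bar at the mean of 2. At P0 the Pard3WT libraries stand far above the Pard3HMKO libraries in every panel, and Acot2 is higher in Pard3HMKO before birth.

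At P0 the genotypes stood furthest apart among the Pard3 comparisons, by the count of members and by their median. These libraries also enter the comparisons of birth. Of the 35 members, 33 were lower in Pard3HMKO and 0 higher, against 10.5% of genes higher and 11.3% lower, and the exceptions were Acot8, a peroxisomal thioesterase, and Slc22a5, the carnitine importer of the plasma membrane. The members' median log2 fold change was -1.61 and that of all genes -0.02. In all 35 members the libraries of the genotypes did not overlap. With 2 libraries per genotype this can also occur without a difference, and the share over all genes was not counted. The lack of overlap is therefore not read as a result about the members. The peroxisomal median was -1.79 and the mitochondrial one -1.28. Ehhadh held 1500 and 1348 CPM in Pard3WT and 90.6 and 68.6 in Pard3HMKO, 17.9-fold lower (log2 fold change -4.16, SE 0.23, edgeR adjusted p = 1.64e-15). Acaa1b, at 27.5 and 23.7 CPM in Pard3HMKO, was 17.8-fold lower (log2 fold change -4.15, SE 0.20, edgeR adjusted p = 4.14e-17). Decr2 was at 27.6 and 28.8 CPM in Pard3HMKO against 282 and 271 in Pard3WT (log2 fold change -3.29, SE 0.16, edgeR adjusted p = 4.14e-17). Among mitochondrial members, Acot2 (-3.06 ± 0.20), Etfdh (-2.17 ± 0.14) and Acadvl, the very-long-chain acyl-CoA dehydrogenase (-1.63 ± 0.19), differed most, with edgeR adjusted p of 1e-13, 9.19e-14 and 2.27e-08. Ech1, Eci2 and Acsl1 differed by -2.58 ± 0.15 (SE; edgeR adjusted p = 3.85e-15), -2.35 ± 0.18 (SE; edgeR adjusted p = 1.92e-12) and -1.88 ± 0.14 (SE; edgeR adjusted p = 1.28e-12).

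Genes around the pathway were lower at P0 too. Cpt1a differed by -5.25 ± 0.31 (SE; edgeR adjusted p = 3.58e-14) and Ppara by -1.93 ± 0.24 (SE; edgeR adjusted p = 1.07e-07). Of the wider lists, 10 of 14 genes for entry, oxidation and ketone bodies were lower and 0 higher, 20 of 36 peroxisome genes were lower and 3 higher, and 6 of 14 citric acid cycle genes were lower and 1 higher. The summed hepatocyte markers, in CPM without TMM, were 179014 to 192913 in Pard3HMKO and 176492 to 183766 in Pard3WT. The summed list of 12 stellate cell markers was 117 to 124 CPM in Pard3HMKO, with reads for 9 of the 12 in every library, and 5.97 to 32.4 CPM in Pard3WT, with 7 of the 12. Rgs5 was at 0 in both genotypes, and Acta2 and Hgf were at 0 in Pard3WT. The 14 macrophage and myeloid markers stood on the other side, at 15.9 to 18.4 CPM in Pard3HMKO and 45.4 to 175 in Pard3WT, with reads for 13 and 12 of them in every library. Biliary markers were at 10.6 to 10.9 and 16.7 to 22.8 CPM, and endothelial ones at 17.7 to 27 and 10.6 to 15.1. The part of these markers in the result was not tested.

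Up to E15.5, at most 1 member per stage was called between the Pard3 genotypes. At E11.5 only Hadhb, the thiolase subunit of the mitochondrial trifunctional protein, was called lower, against 0.0485% of genes higher and 0.0269% lower; it held 60.4 and 136 CPM in Pard3WT and 38.2 and 46 in Pard3HMKO (log2 fold change -1.22, SE 0.22, edgeR adjusted p = 0.0127). The call was lost without either Pard3HMKO library or without Pard3WT replicate 2. At E13.5 edgeR called 0 members, as it called 0% of genes, with 2 members at an unadjusted p below 0.05 and 0 called by DESeq2. At E15.5 edgeR called 0 members, against 0.14% of genes higher and 0.0969% lower; 7 members had an unadjusted p below 0.05, of which 5 were higher, and DESeq2 called 2.

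At E17.5, 21 members were lower and 2 higher in Foxa3-Cre Pard3HMKO, against 7.09% of genes higher and 7.86% lower, with a median of -0.61 over the members and 0.00 over all genes. Acaa2 was lower, at 983 and 804 CPM against 1842 and 2048 in Pard3WT (log2 fold change -1.12, SE 0.08, edgeR adjusted p = 1.2e-11). Acadm was at 514 and 348 against 803 and 1011 CPM (log2 fold change -1.07, SE 0.15, edgeR adjusted p = 1.98e-06) and Ech1 at 326 and 234 against 646 and 760.2 CPM (log2 fold change -1.33, SE 0.15, edgeR adjusted p = 3.84e-08). Acadvl, Decr2 and Acaa1b differed by -1.33 ± 0.18 (SE; edgeR adjusted p = 2.25e-06), -1.15 ± 0.15 (SE; edgeR adjusted p = 6.46e-07) and -1.08 ± 0.19 (SE; edgeR adjusted p = 6.05e-05). The exceptions were a pair of neighbouring thioesterase paralogs. Acot2 was higher in Pard3HMKO, at 177 and 224 against 93.2 and 97.1 CPM (log2 fold change 1.07, SE 0.19, edgeR adjusted p = 8.38e-05). Acot1 was at 39.8 and 39.9 against 17.6 and 19.3 CPM (log2 fold change 1.11, SE 0.17, edgeR adjusted p = 1.57e-05). The genotypes' libraries did not overlap in any of these genes. Ppara differed by -1.34 ± 0.24 (SE; edgeR adjusted p = 9.05e-05). Hepatocyte markers summed to 200573 to 235094 CPM in Pard3HMKO and 295736 to 303678 in Pard3WT, and stellate markers to 111 to 128 and 29.9 to 32.3 CPM, with reads in every library for 8 and 9 of the 12 genes. Rgs5 was at 0 in both, Hgf and Pdgfra were at 0 in Pard3WT, and the part of these markers was not tested. Endothelial markers were at 28.3 to 61.8 CPM in Pard3HMKO against 15.8 to 20.1499, and macrophage and myeloid ones at 27.5 to 37.9 against 18.8 to 21.3.

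With Alfp-Cre at E17.5, 9 members were lower and 3 higher, against 2.23% of genes higher and 3.05% lower and with a median of -0.24 (0.00 over all genes). DESeq2 called 19 members, a fit of these 4 libraries alone 7, and a fit without cells marked for another cell type 4. Acot2 held 227 and 309 CPM in Pard3HMKO against 81.8 and 83.7 in Pard3WT (log2 fold change 1.70, SE 0.19, edgeR adjusted p = 2.67e-07), and Acot1 59.2 and 63 against 21.5 and 23.3 (log2 fold change 1.45, SE 0.17, edgeR adjusted p = 5.3e-07). Ech1 differed by -1.02 ± 0.14 (SE; edgeR adjusted p = 8.77e-06), Acaa2 by -0.72 ± 0.08 (SE; edgeR adjusted p = 2.51e-07) and Acsl1 by -0.92 ± 0.14 (SE; edgeR adjusted p = 1.76e-05). Acot2 and Acot1 were thus higher, and Ech1, Acaa2 and Acsl1 lower, with each of the 2 Cre drivers. The difference between the drivers was not tested. In the Alfp-Cre line hepatocyte markers summed to 208659 to 214795 CPM in Pard3HMKO and 258044 to 266417 in Pard3WT, stellate ones to 103 to 127 and 41.5 to 101, and macrophage and myeloid ones to 17.2 to 18.2 and 33.8 to 42.7, and their part was not tested.

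At E19.5, 12 members were lower and 3 higher, against 3% of genes higher and 3.94% lower, with a median of -0.17 (0.00 over all genes). This count moved to 7 without Pard3WT replicate 1 and to 9 without either Pard3HMKO replicate, and to 4 without cells marked for another cell type. Acot2 again was higher, at 179.7 and 220.3 against 59.8 and 88.6 CPM (log2 fold change 1.43, SE 0.19, edgeR adjusted p = 3.1e-06). Ehhadh was at 68.9 and 62.3 against 146 and 155 CPM (log2 fold change -1.19, SE 0.21, edgeR adjusted p = 0.000182). Etfdh, Acsl1 and Decr2 differed by -0.78 ± 0.14 (SE; edgeR adjusted p = 0.000232), -0.79 ± 0.14 (SE; edgeR adjusted p = 0.000144) and -0.79 ± 0.15 (SE; edgeR adjusted p = 0.000402).

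At P14, 16 members were lower and 2 higher, against 9% of genes higher and 7.68% lower, with a median of -0.54 (0.00 over all genes). Cat had the smallest adjusted p: Cat held 804 and 738 CPM in Pard3HMKO and 2027 and 2149 in Pard3WT (log2 fold change -1.44, SE 0.11, edgeR adjusted p = 6.28e-12). Decr2 differed by -1.44 ± 0.15 (SE; edgeR adjusted p = 3.94e-09), Acadl, the long-chain acyl-CoA dehydrogenase, by -0.79 ± 0.09 (SE; edgeR adjusted p = 5.61e-08), and Etfdh by -0.85 ± 0.14 (SE; edgeR adjusted p = 2.07e-05). Higher in Pard3HMKO were Crot, which passes shortened acyl groups to carnitine in peroxisomes, at 1394 and 1201 against 740.2 and 710.3 CPM (log2 fold change 0.84, SE 0.16, edgeR adjusted p = 0.000205), and Acot3 (log2 fold change 1.31, SE 0.34, edgeR adjusted p = 0.00543). The call of Acot3 was lost without Pard3HMKO replicate 1 or Pard3WT replicate 1. For Acot2 the P14 levels were 219 and 153 CPM in Pard3HMKO and 294 and 247 in Pard3WT. The sums of 5 marker lists moved with genotype at P14 without overlap. Biliary markers were at 59.4 to 105 CPM in Pard3HMKO against 18 to 19.3 in Pard3WT, with reads for 4 of 8 in every library and Krt7 and Tff2 at 0 in both, and hepatocyte markers at 167760 to 180720 against 150775 to 154842. On the lower side in Pard3HMKO were endothelial markers, at 23.3 to 28.5 against 37.6 to 52.9 CPM, macrophage and myeloid markers, at 92.9 to 124 against 161 to 314, and erythroid markers, at 168 to 243 against 263 to 695. Their part in the result was not tested.

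**Figure D3:**
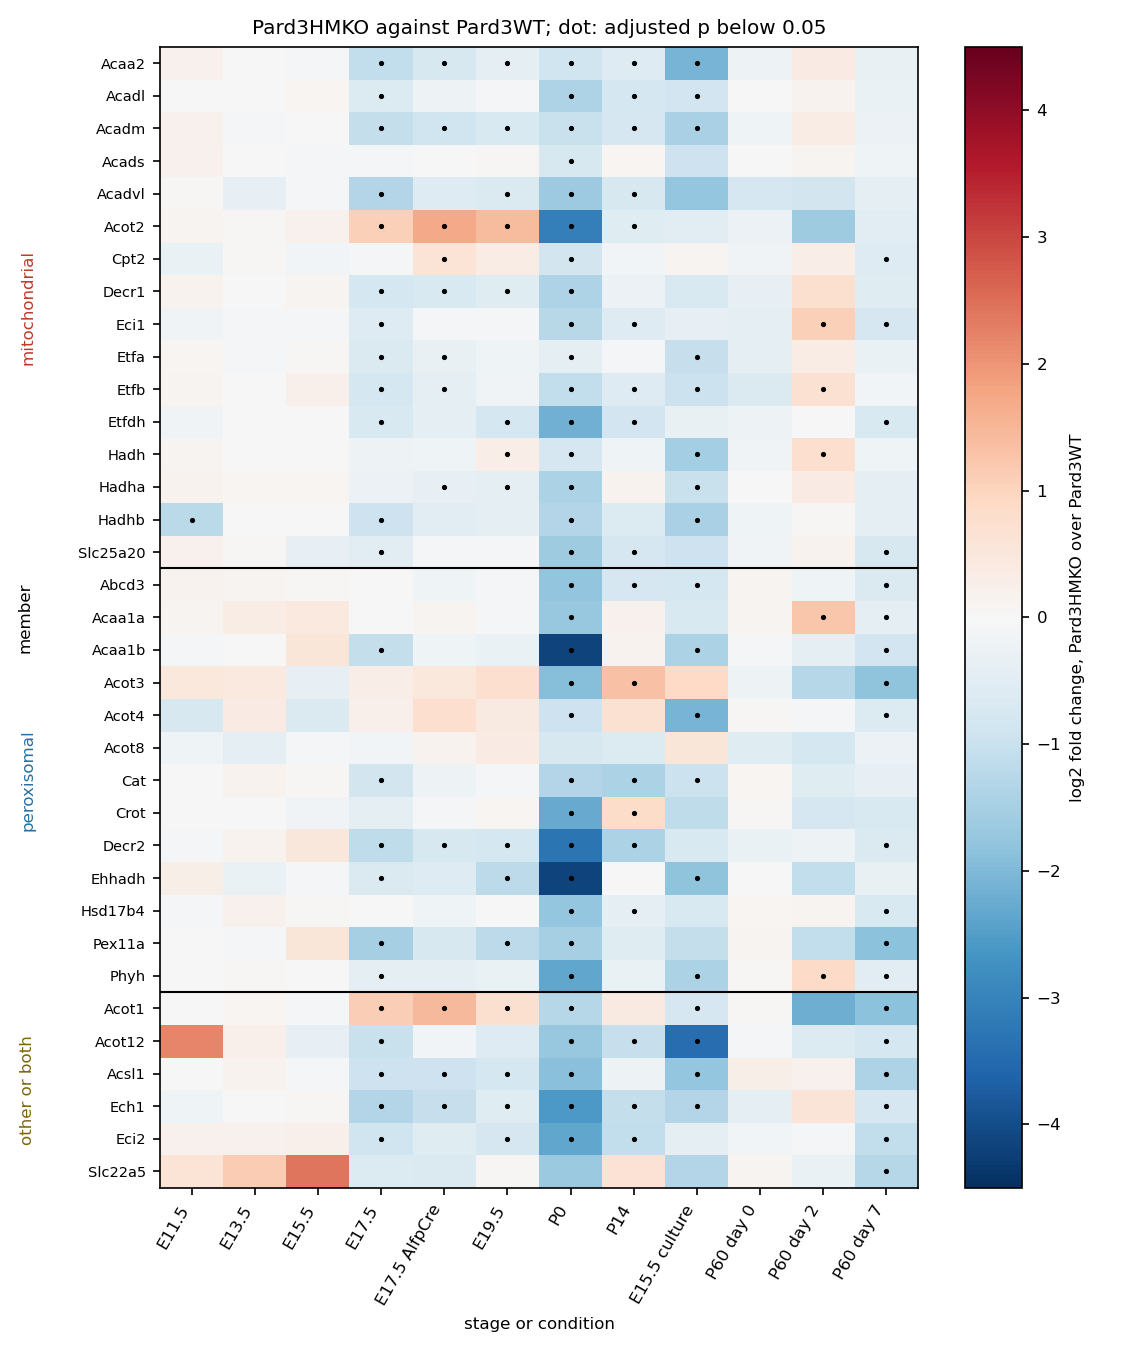
Log2 fold change of Pard3HMKO over Pard3WT for the 35 members (rows, by compartment) in 12 comparisons (columns, from E11.5 to the adult liver after hepatectomy), with dots where the edgeR adjusted p is below 0.05. The P0 column is lower in nearly every row, with 33 dots, and Acot2 and Acot1 are higher at E17.5 and E19.5.

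In culture, PD raised the whole set. Control cultures of Pard3WT and YapWT were compared with PD cultures of the same lines, and all 35 members rose, against 13.1% of 16715 genes higher and 14.4% lower. The median log2 fold change was 2.62 over the members and -0.08 over all genes. It was 2.53 over the mitochondrial, 2.62 over the peroxisomal and 2.85 over the other members. Acot2 went from 475 and 474 CPM in Pard3WT and 215 and 315 in YapWT controls to 7071 and 6350 with PD in Pard3WT, and 9037 and 7305 in YapWT (log2 fold change 4.38, SE 0.14, edgeR adjusted p = 1.31e-13). Decr1 and Cpt2, the inner-membrane carnitine palmitoyltransferase, rose by 3.44 ± 0.19 (SE; edgeR adjusted p = 1.37e-11) and 3.22 ± 0.25 (SE; edgeR adjusted p = 2.88e-09). The largest fitted rises were those of the peroxisomal members Acot3, Ehhadh and Acaa1b, although the compartment medians were close. Ehhadh went from 77.3 and 70.8 in Pard3WT and 51.8 and 52.3 CPM in YapWT controls to 4721 and 4712 with PD in Pard3WT, and 6352 and 5966 in YapWT, 86.7-fold (log2 fold change 6.44, SE 0.24, edgeR adjusted p = 2.33e-11). Acaa1b went from 37.9 and 22.1 to 1771 and 1782 CPM in Pard3WT, and from 30.8 and 21 to 2352 and 2287 in YapWT, 72.5-fold (log2 fold change 6.18, SE 0.22, edgeR adjusted p = 2e-12). Acot3 was at 0 and 0.913 CPM in Pard3WT controls and at 242 and 164 with PD. The smallest rises were those of Acot8 (1.01 ± 0.21, edgeR adjusted p = 0.000957), Crot (1.39 ± 0.35, edgeR adjusted p = 0.00809) and Phyh, which starts the oxidation of phytanic acid (1.44 ± 0.16, edgeR adjusted p = 7.6e-07).

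Acot1, Acsl1 and Ech1 rose with PD by 5.53 ± 0.17 (SE; edgeR adjusted p = 1.91e-15), 3.26 ± 0.17 (SE; edgeR adjusted p = 1.06e-11) and 3.04 ± 0.21 (SE; edgeR adjusted p = 2.07e-09). Among genes outside the members, Cpt1a rose by 3.04 ± 0.25 (SE; edgeR adjusted p = 1.97e-08) and Ppara by 1.01 ± 0.33 (SE; edgeR adjusted p = 0.0242). In the wider lists 11 of 14 genes for entry, oxidation and ketone bodies, 25 of 36 peroxisome genes and 14 of 14 citric acid cycle genes rose, and 0 fell in each. The hepatocyte markers summed to 42802 to 47197 CPM with PD and 42652 to 46893 in controls of Pard3WT. In YapWT they summed to 42598 to 45491 with PD and 41209 to 69764 in controls. Macrophage and myeloid markers were lower with PD, at 8.84 to 13.47 against 70.7 to 72.2 CPM in Pard3WT and 12.9 to 16.6 against 188 to 435 in YapWT, and of these 14 genes Clec4f, Elane, Mpo and Vsig4 were at 0 in both Pard3WT groups. Biliary markers were at 22.6 to 26 against 37.1 to 72.4 CPM in Pard3WT and 14.6 to 14.7 against 70.6 to 111 in YapWT, with Cftr and Tff2 at 0 throughout. Endothelial markers were at 23.3 to 27.7 against 50.0 to 63.8 CPM in Pard3WT and 28.2 to 33.2 against 36.2 to 55.7 in YapWT. Erythroid markers were higher with PD, at 76.4 to 104 against 15.6 to 25.6 and 49.2 to 268 against 3.96 to 6.16 CPM. What these markers contribute to the rises with PD was not tested.

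U0126 in Pard3WT cultures raised 34 members and lowered 0, against 7.4% of genes higher and 5.73% lower, with a median of 2.57 (-0.02 over all genes). It shares the Pard3WT controls with the PD comparison, so its values are given only side by side. Acot2 held 7621 and 6650 CPM with U0126 and 7071 and 6350 with PD. Ehhadh held 4939 and 3843 CPM with U0126 and 4721 and 4712 with PD, and Acaa1b 1701 and 1444 CPM with U0126 and 1771 and 1782 with PD. The doses are not given, and the compounds were not tested against each other. Crot was the member not called with U0126 (log2 fold change 1.51, SE 0.50, edgeR adjusted p = 0.0628). The rise of Ehhadh with U0126 was 5.89 ± 0.34 (SE; edgeR adjusted p = 1.37e-08) and that of Acot2 3.91 ± 0.19 (SE; edgeR adjusted p = 3.42e-10). With U0126 the hepatocyte markers summed to 33279 to 34946 CPM, the macrophage and myeloid ones to 7.99 to 16.5001, the biliary ones to 16.2 to 26.5, the endothelial ones to 21.6 to 26.3 and the stellate ones to 7.59 to 9.45, against 18.2 to 28.8 for stellate markers in controls, and their part was not tested.

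TPPB lowered most members. In Pard3WT and YapWT cultures 31 members fell and 0 rose, against 6.49% of genes higher and 10.5% lower, with a median of -1.41 (0.04 over all genes), and those not called were Acot8, Acot3, Eci2 and Cpt2. This comparison shares its controls with that of PD. Acaa2 went from 181 and 101 CPM in Pard3WT and 288 and 146 in YapWT controls to 11.46 and 20.6 with TPPB in Pard3WT, and 32.4 and 18.2 in YapWT (log2 fold change -3.12, SE 0.33, edgeR adjusted p = 5.83e-06). Hadh, the short-chain hydroxyacyl-CoA dehydrogenase, and Acadm fell by 2.41 and 1.91 on the log2 scale, with edgeR adjusted p of 1.49e-07 and 6.12e-09. Crot fell to 102 and 92.3 CPM in Pard3WT and 101 and 20 in YapWT, from 437 and 451 in Pard3WT controls and 659.6 and 377 in YapWT controls (log2 fold change -2.64, SE 0.37, edgeR adjusted p = 0.00012). Acsl1, Acot4 and Phyh fell by 2.201, 2.25 and 1.76 on the log2 scale, with edgeR adjusted p of 2.38e-09, 1.27e-07 and 7.8e-08. Ppara fell, at -3.32 ± 0.37 (SE; edgeR adjusted p = 6.8e-07). The hepatocyte markers summed to 7436 to 8490 CPM with TPPB and 42652 to 46893 in controls of Pard3WT, and in YapWT to 9825 to 10824 with TPPB. Biliary markers were at 118 to 199 CPM with TPPB in Pard3WT and 127 to 152 in YapWT, above the controls of both lines, and macrophage and myeloid markers at 58.6 to 75.2 in Pard3WT and 92.4 to 98.9 in YapWT. Their part in the result was not tested.

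Cultures with TPPB+PD held more of nearly every member than cultures with TPPB. In Pard3WT cultures 34 members were higher with TPPB+PD than with TPPB, against 14% of genes higher and 12.1% lower, and 0 lower, with Acot8 not called. The median was 3.63 (-0.07 over all genes). Acaa2 rose from 11.46 and 20.6 to 774 and 838 CPM (log2 fold change 5.65, SE 0.53, edgeR adjusted p = 8.02e-07), and it held 1057 and 964 CPM with PD alone. Ehhadh rose from 20.7 and 23.3 to 4100 and 4227 CPM (log2 fold change 7.57, SE 0.36, edgeR adjusted p = 3.03e-10) and Acot2 from 257 and 272 to 6016 and 8041 CPM (log2 fold change 4.73, SE 0.20, edgeR adjusted p = 5.73e-12). TPPB+PD and PD alone were not tested against each other. Ppara differed by 4.51 ± 0.55 (SE; edgeR adjusted p = 1.51e-06). Hepatocyte markers summed to 34805 to 38991 CPM with TPPB+PD. Biliary markers were at 24.7 to 31.6 CPM with TPPB+PD, macrophage and myeloid ones at 10.1 to 14.1, and erythroid ones at 619 to 1775 against 16.7 to 27.9 with TPPB, and their part was not tested.

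Untreated Pard3HMKO cultures held less of the members than Pard3WT cultures. Of the 35, 18 were lower and 0 higher, against 1.56% of genes higher and 3.36% lower, with a median of -0.98 (0.0078 over all genes). There were 7 calls without Pard3HMKO replicate 2, 10 without Pard3WT replicate 1, and 6 in a fit of these 4 libraries alone. Ehhadh held 20.5 and 21.2 CPM in Pard3HMKO and 77.3 and 70.8 in Pard3WT (log2 fold change -1.83, SE 0.29, edgeR adjusted p = 0.0012). Acsl1 held 34.4 and 27.2 CPM in Pard3HMKO against 97.1 and 109 in Pard3WT (log2 fold change -1.74, SE 0.23, edgeR adjusted p = 5.9e-05), and Phyh 49.8 and 53.8 CPM in Pard3HMKO against 152 and 125.8 in Pard3WT (log2 fold change -1.42, SE 0.23, edgeR adjusted p = 0.000585). In each the genotypes did not overlap. Hepatocyte markers summed to 12852 to 14577 CPM in untreated Pard3HMKO cultures, against 42652 to 46893 in Pard3WT, biliary markers to 74.9 to 109.5 against 37.1 to 72.4, and endothelial markers to 34.6 to 44.8 against 50.0 to 63.8, and their part was not tested.

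PD raised 34 members and U0126 34 in Pard3HMKO cultures, against 9.03% of genes higher and 5.5% lower with PD and 10.3% of genes higher and 7.47% lower with U0126, with medians of 2.63 and 3.27 over the members (0.00 and -0.08 over all genes). Ehhadh reached 2410 and 2940 CPM with PD (log2 fold change 7.00, SE 0.35, edgeR adjusted p = 2.95e-09) and 3215 and 5223 with U0126 (log2 fold change 7.66, SE 0.36, edgeR adjusted p = 6.46e-10). The PD libraries of Pard3HMKO lay below those of Pard3WT for Ehhadh. The change with PD was tested for a difference between genotypes, and edgeR called 0 members, against 0.622% of genes higher and 0.185% lower. Of the members 9 had an unadjusted p below 0.05, 5 of them with a larger rise in Pard3HMKO, and DESeq2 called 1. The median difference was 0.21 (0.10 over all genes). In Pard3HMKO cultures the hepatocyte markers summed to 33483 to 37929 CPM with PD and 40186 to 44364 with U0126, above the untreated libraries, and the biliary ones to 46.5 to 47.6 and 30.2 to 37, below them, and their part was not tested.

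**Figure D4:**
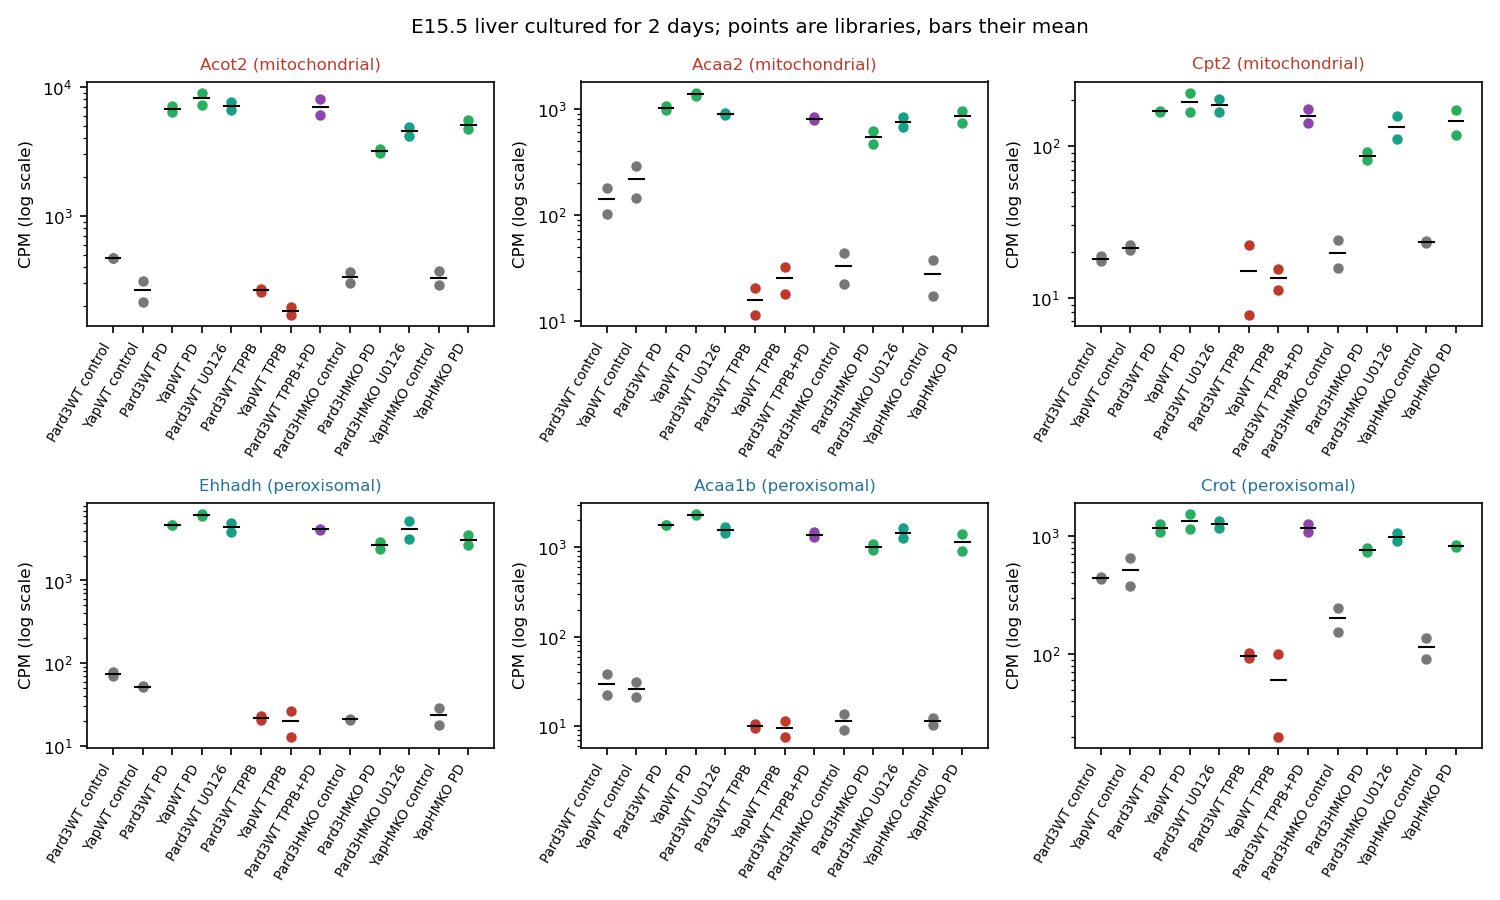
CPM on a log axis of Acot2, Acaa2, Cpt2, Ehhadh, Acaa1b and Crot in E15.5 livers cultured for 2 days, with a point per library over 13 groups of line and compound and a bar at the mean. Cultures with PD, U0126 or TPPB+PD stand above their controls and those with TPPB alone lie below them, except for Cpt2 in Pard3WT, where TPPB and control libraries overlap.

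After hepatectomy, called peroxisomal members all fell, while mitochondrial members moved both ways. On day 2 in Pard3WT adults, 16 members were lower than on day 0 and 2 higher, against 5.78% of 15391 genes higher and 9.91% lower, with a median of -0.40 (-0.06 over all genes). Of the 13 peroxisomal members 8 fell and 0 rose, with a median of -0.95, and of the 16 mitochondrial members 6 fell and 2 rose, with a median of -0.14. A fit of these 4 libraries alone called 10 members. Cat fell from 2930 and 3630 to 584 and 629 CPM (log2 fold change -2.44, SE 0.19, edgeR adjusted p = 8.6e-09). Acaa1b fell from 679 and 594 to 85.9 and 148 CPM (log2 fold change -2.44, SE 0.21, edgeR adjusted p = 3.4e-08) and Phyh from 1870 and 1879 to 465 and 542 CPM (log2 fold change -1.90, SE 0.16, edgeR adjusted p = 4.21e-08). These are the catalase, a thiolase and the phytanic acid enzyme of peroxisomes, and no library of day 2 reached the level of day 0 in any of them. The deepest fall was that of Acsl1, which activates fatty acids for either fate, from 481 and 762 to 67.9 and 65.3 CPM (log2 fold change -3.22, SE 0.26, edgeR adjusted p = 1.46e-08). In mitochondria, Hadh fell from 344 and 386 to 115 and 108 CPM (log2 fold change -1.71, SE 0.18, edgeR adjusted p = 8.16e-07), while Eci1, an isomerase, and Etfa, the alpha subunit of ETF, fell by 1.398 and 1.18 on the log2 scale (edgeR adjusted p = 0.0007 and 0.000418). Acot2 rose, from 61.6 and 89.9 to 501 and 458 CPM (log2 fold change 2.66, SE 0.54, edgeR adjusted p = 0.00264), a call that was lost without day 0 replicate 1. Acadl rose by 0.58 ± 0.15 (SE; edgeR adjusted p = 0.00914), a call that was lost without either day 0 library or without day 2 replicate 1.

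Day 2 replicate 1 of Pard3WT held 7 cells. Hepatocyte markers summed to 81800 to 92822 CPM on day 2 and 133627 to 134440 on day 0. Biliary markers summed to 552 to 1940 CPM on day 2, with reads for 3 of 8 genes in every library and Cftr at 0 in all, and to 68.9 to 218 on day 0, with 7 of 8. Erythroid markers ranged from 7.55 to 5085 CPM on day 2, with reads for 5 of 11 genes in every library and Epor, Ermap, Hemgn and Slc4a1 at 0, and from 47.9 to 582 CPM on day 0. The part of these markers was not tested. Of genes outside the members, Cpt1a (-0.37 ± 0.22, edgeR adjusted p = 0.312) and Ppara (-0.47 ± 0.20, edgeR adjusted p = 0.127) were not called. Of 36 peroxisome genes 16 fell and 2 rose, and Pxmp2, a peroxisomal membrane protein, fell, at -2.63 ± 0.18 (SE; edgeR adjusted p = 1.35e-09).

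Between day 2 and day 7 the members named here for day 2 and called again moved the opposite way. From day 2 to day 7, with 4 libraries on day 7, 15 members rose and 3 fell, against 12.3% of genes higher and 9.28% lower, with a median of 0.32 (0.07 over all genes). This comparison shares the day 2 libraries with the previous one. Of peroxisomal members 8 rose and 0 fell. Cat held 2536, 2827, 2565 and 3025 CPM on day 7 (log2 fold change 2.17, SE 0.17, edgeR adjusted p = 9.2e-09), Acaa1b 831, 802, 667 and 739 (log2 fold change 2.69, SE 0.20, edgeR adjusted p = 2.91e-09) and Acsl1 524, 714, 543 and 722 (log2 fold change 3.23, SE 0.24, edgeR adjusted p = 4.46e-09). Acot2 fell to 47.9, 69, 50.2 and 92.6 CPM (log2 fold change -2.88, SE 0.43, edgeR adjusted p = 0.000128). Hadh, Etfa and Eci1 rose by 1.39 ± 0.17 (SE; edgeR adjusted p = 2.44e-06), 1.24 ± 0.19 (SE; edgeR adjusted p = 5.85e-05) and 1.18 ± 0.24 (SE; edgeR adjusted p = 0.000986). Hepatocyte markers summed to 124789 to 139085 CPM on day 7, biliary markers to 23.8 to 66.7, and macrophage and myeloid markers to 13.2 to 19.6 against 26 to 33.8 on day 2, and their part was not tested.

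In Pard3HMKO adults, 12 members were lower and 6 higher on day 2 than on day 0, against 8.78% of genes higher and 10% lower, with a median of -0.13 (-0.06 over all genes). Peroxisomal members fell in 7 of 13 cases and rose in 0, with a median of -1.02, while mitochondrial members rose in 5 of 16 and fell in 2, with a median of 0.55. The count of 18 moved to 10 without Pard3HMKO day 0 replicate 1 and to 11 without day 2 replicate 2. Cat fell from 3386 and 3637 to 454 and 373 CPM (log2 fold change -3.09, SE 0.19, edgeR adjusted p = 4.21e-10) and Acaa1b from 622 and 562 to 86.2 and 92.1 CPM (log2 fold change -2.73, SE 0.21, edgeR adjusted p = 9.16e-09). Etfb, the beta subunit of ETF, rose from 669.7 and 727 to 1193 and 1386 CPM (log2 fold change 0.88, SE 0.16, edgeR adjusted p = 0.000408). Hadha, the other subunit of the trifunctional protein, rose from 145 and 161 to 288 and 276 CPM (log2 fold change 0.88, SE 0.20, edgeR adjusted p = 0.00294), a call that was lost without day 0 replicate 1. Hepatocyte markers summed to 69475 to 69895 CPM on day 2 and 119103 to 137552 on day 0. Erythroid markers were at 7.37 to 9.61 against 34.3 to 82.3 CPM and stellate ones at 18.7 to 35.2 against 10.8 to 13.1, and the part of these lists was not tested.

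The day 2 change differed between genotypes for 3 members, all higher in Pard3HMKO, against 1.83% of genes higher and 0.526% lower, with a median difference of 0.08 (0.06 over all genes). Etfb went from 1151 and 1060 to 892 and 695 CPM in Pard3WT, opposite to its rise in Pard3HMKO, and the difference was 1.36 ± 0.23 (SE; edgeR adjusted p = 0.0023). For Eci1 it was 1.46 ± 0.37 (SE; edgeR adjusted p = 0.0391) and for Acaa1a, the other peroxisomal thiolase, 1.15 ± 0.24 (SE; edgeR adjusted p = 0.0137). The count was 1 without either Pard3WT day 0 library, without Pard3HMKO day 0 replicate 2, or without replicate 1 of day 2 in either genotype. Eci1 lost its call without any 1 of the 8 libraries. The count moved to 5 in DESeq2, 8 without the filter on low counts and 9 without cells marked for another cell type.

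**Figure D5:**
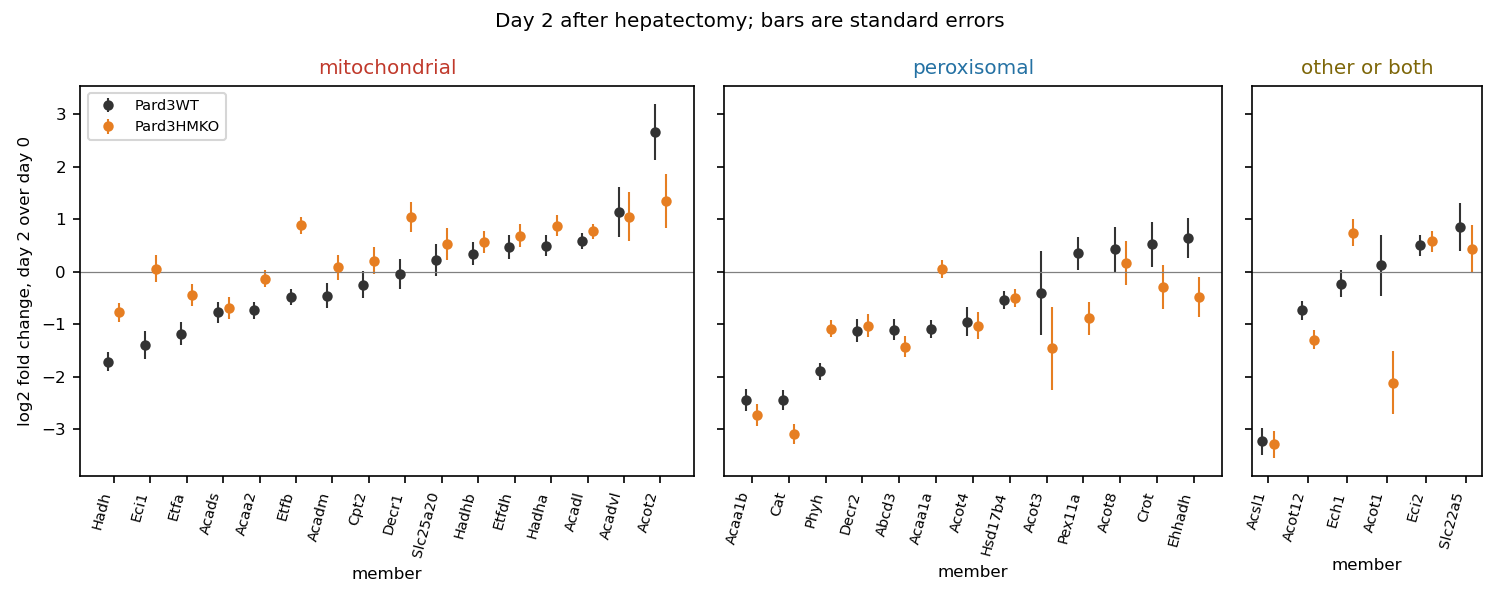
Log2 fold change (with its SE as the bar) from day 0 to day 2 after hepatectomy for each of the 35 members, by compartment, in Pard3WT (grey) and Pard3HMKO (orange) adults. Cat, Acaa1b and Acsl1 lie far to the lower side in both genotypes, and Acot2 stands on the higher side in Pard3WT.

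Between adult genotypes, edgeR called 0 members, as it called 0% of genes on day 0, where 1 member was lower at an unadjusted p below 0.05 and DESeq2 called 1. The median was -0.14 (0.04 over all genes). On day 2, 5 members were higher in Pard3HMKO and 0 lower, against 1.97% of genes higher and 1.21% lower, with a median of 0.04 (0.08 over all genes). Acaa1a led, at 267 and 232 CPM against 88.1 and 120.2 in Pard3WT (log2 fold change 1.26, SE 0.18, edgeR adjusted p = 0.000196), followed by Phyh, whose call was lost without Pard3WT replicate 1, at 995 and 839 against 465 and 542 CPM (log2 fold change 0.86, SE 0.16, edgeR adjusted p = 0.00283). The others were Eci1, Hadh and Etfb, each of which lost its call without Pard3WT replicate 2 or Pard3HMKO replicate 2, and Eci1 and Hadh also without replicate 1 of either genotype. Only 2 members were called without Pard3WT replicate 1 or Pard3HMKO replicate 2 and 3 without Pard3HMKO replicate 1. Without the filter, or without cells marked for another cell type, 10 were called. DESeq2 called 11, of which 5 were higher and 6 lower, and at an unadjusted edgeR p below 0.05 there were 8 higher and 6 lower, so the split of 5 and 0 depends on the method. Biliary markers were at 94.7 to 156 CPM in Pard3HMKO and 552 to 1940 in Pard3WT on day 2, and hepatocyte markers at 69475 to 69895 and 81800 to 92822, and their part was not tested.

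On day 7, 19 members were lower in Pard3HMKO and 0 higher, against 2.77% of genes higher and 2.74% lower, with a median of -0.58 (0.03 over all genes). They were 9 of 13 peroxisomal, 4 of 16 mitochondrial and 6 of 6 other members. The groups held 4 Pard3WT and 6 Pard3HMKO libraries. Within Pard3WT some members fell into 2 levels, as Crot did at 390.4, 819.9, 403.5 and 862.3 CPM. The Pard3HMKO libraries held 325.4 to 485.7 CPM of Crot. The labels do not say what sets these levels apart, and its part in the genotype difference was not tested. Acsl1 held 524, 714, 543 and 722 CPM in Pard3WT, while Pard3HMKO libraries ranged from 183 to 281 with a median of 243 (log2 fold change -1.396, SE 0.15, edgeR adjusted p = 4.37e-06). Pex11a held 133, 161, 121 and 182 CPM in Pard3WT, and Pard3HMKO ranged from 26.3 to 59.1 with a median of 43.2 (log2 fold change -1.84, SE 0.20, edgeR adjusted p = 5.41e-06). For Acaa1b the Pard3HMKO range was 359 to 483 CPM with a median of 415, below all 4 Pard3WT libraries (log2 fold change -0.87, SE 0.12, edgeR adjusted p = 0.000186). Acot1 differed by -1.86 ± 0.37 (SE; edgeR adjusted p = 0.00686) and Eci1 by -0.76 ± 0.17 (SE; edgeR adjusted p = 0.00785). Outside the members, Cpt1a differed by -0.55 ± 0.14 (SE; edgeR adjusted p = 0.0247) and Ppara by -0.61 ± 0.13 (SE; edgeR adjusted p = 0.00506). Without Pard3WT replicate 4 the count fell to 11, and without cells marked for another cell type to 7. The latter fit also lost libraries, since Pard3HMKO replicates 1 to 4 had fewer than 5 unmarked cells and were dropped. Every cell of Pard3HMKO replicates 3 and 4 was so marked. Stellate markers summed to 37 to 257 CPM in Pard3HMKO, with reads for 10 of 12 genes in every library, and 4.4 to 25.5 in Pard3WT, with 9 of 12. Macrophage and myeloid markers were at 33.6 to 91.8 and 13.2 to 19.6 CPM, and hepatocyte markers at 148212 to 161050 and 124789 to 139085, and the part of these lists was not tested.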

How the data were processed

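RNA was measured as deposited read counts per gene and cell. Per the submitters' processing notes, the authors used FastQC 0.11.9, Trimmomatic 0.39 and HISAT2 2.1.0 on GRCm38/mm10; for the counting tool, its strand setting and molecular identifiers, nothing was given in the sources used here. ATAC peak lists hold a score per peak, and the deposited scores were 50 or more; there is 1 list per library, and the same notes name MACS 1.4.2, HOMER, SAMtools 1.3.1, Bowtie2 2.2.5 and Trimmomatic 0.38. Cells are not replicates, so counts were summed per library, leaving out 92 spike-in rows with 126 reads. No doublets were removed. edgeR 4.0.16 (R 4.3.3, limma 3.58.1) used filterByExpr, TMM factors, trended dispersion and robust quasi-likelihood F tests, 2-sided, in 4 fits of 18 wild-type, 44 line, 26 culture and 18 adult libraries. A standard error is the size of a log2 fold change over the root of its F statistic. DESeq2 1.42.0 was an alternative. The fit was also run on counts simulated from its own model, which cannot test how well that model describes these data. Peaks overlapping a start window by 1 base or more were counted.

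The members and lists, written from general knowledge, were chosen with earlier results of these data known. In each comparison, at most 3 called members per direction and compartment with the largest change and at least 10 CPM in a group were eligible to be named, with a few others as stated, plus Cpt1a and Ppara; other genes under that rule are not reported here. Pxmp2, Acot8 and Crot with small changes, and members followed from another comparison, were named after values were seen or as exceptions. Alternatives covered size factors, the low-count filter, DESeq2, the libraries fitted, marked cells, replicate blocks and each library left out; leaving out the 37 cells with over 1% of reads in other types' markers was added after seeing the data.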

Additional observations from a re-analysis of the deposited data

Results flagged for a closer look

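In 2 of 70 sets of libraries of a member and group that were large enough to check, 1 library stood far from the others, and chance alone gives about 1 in 20 such sets. Phyh held 1115 CPM in Pard3HMKO day 7 replicate 4, against 1336 to 1444 CPM in the other 5 libraries of the group. Acot12 held 53.02 CPM in Pard3HMKO day 7 replicate 3, against 41.19 to 43.78 CPM in its other 5. In both of these libraries 100% of cells had reads for at least 50% of another cell type's markers.

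The change from E19.5 to P0 differed between Pard3WT and Pard3HMKO for 28 members by the test of the difference itself (edgeR, adjusted over all genes), and the values here are Pard3HMKO minus Pard3WT on the log2 scale. Among peroxisomal members the differences were -3.869 for Acaa1b, -2.966 for Ehhadh, -2.649 for Acot3, -2.506 for Decr2 and -2.344 for Crot. They were -2.055 for Phyh, -1.75 for Hsd17b4, the second bifunctional enzyme of peroxisomes, -1.706 for Abcd3, which imports acyl-CoA into peroxisomes, -1.607 for Acaa1a, -1.332 for Acot4 and -1.269 for Cat. Among mitochondrial members Acot2 stood at -4.493, Slc25a20 at -1.549, Etfdh at -1.385 and Acadl at -1.309. Eci1 stood at -1.2, Cpt2 at -1.141, Hadh at -1.063, Hadha at -1.024, Acadvl at -0.9902 and Etfb at -0.9275. The smallest of the 28 were those of Decr1 at -0.8395, Acads, the short-chain dehydrogenase, at -0.7712 and Acaa2 at -0.474. Of the remaining members Ech1 stood at -2.048, Acot1 at -1.986, Eci2 at -1.586 and Acsl1 at -1.086.

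From day 0 to day 2 after hepatectomy, the change differed between the adult genotypes for Etfb by 1.363, for Eci1 by 1.459 and for Acaa1a by 1.15, again as Pard3HMKO minus Pard3WT on the log2 scale.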

How the results depend on the processing

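Over 28 comparisons, 522 calls of members were recomputed 6700 times under the alternatives, and 6268 values kept their direction and call, 432 kept their direction and lost the call, and 0 reversed. The counts of called members that moved by over 1.5 times are these, and the cause was not tested. Without cells with markers of another type, 15 members were called between P0 and P14, 4 with Alfp-Cre at E17.5, 4 at E19.5, 2 for the difference in the PD change, 9 for the difference on day 2, 2 between adult genotypes on day 0, 10 on day 2 and 7 on day 7. With only the libraries compared, 0 were called at E11.5, 7 with Alfp-Cre, 6 between untreated cultures, 1 for the difference in the PD change and 10 on day 2 after hepatectomy in Pard3WT. With DESeq2, 2 were called at E15.5, 19 with Alfp-Cre, 1 for the difference in the PD change, 5 for the difference on day 2, and 1 and 11 between adult genotypes on days 0 and 2. Without the filter on low counts, 1 was called at E15.5, 4 for the difference in the PD change, 8 for the difference on day 2 and 10 between adult genotypes on day 2. Taking only the upper 50% of peak scores, 15 members had a peak at their start in all 22 libraries. Without cells marked for another type, 24 of the 28 comparisons gave values, since libraries with fewer than 5 cells left were dropped. Those without values were birth in Pard3HMKO, the difference at birth, and the Pard3 genotypes at P0 and at P14. Of the Pard3HMKO cells, 28 of 30 and 25 of 25 were marked at P0, and 32 of 35 and 24 of 24 at P14. These results were therefore not checked by this setting.

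Leaving out 1 library at a time gave these ranges of called members: 22 to 28 for the wild-type slope, 25 to 27 at birth and 19 to 22 after birth in Pard3WT, 8 to 9 at birth in Pard3HMKO and 27 to 28 for the difference. Between the Pard3 genotypes they were 0 to 1 at E11.5, 0 to 0 at E13.5 and E15.5, 19 to 20 at E17.5, 8 to 10 with Alfp-Cre, 7 to 11 at E19.5, 32 to 34 at P0 and 15 to 17 at P14. In culture they were 34 to 35 for PD, 29 to 32 for TPPB, 32 to 33 for U0126, 34 to 34 for TPPB+PD, 7 to 21 for untreated Pard3HMKO, 32 to 33 and 33 to 34 for PD and U0126 in Pard3HMKO, and 0 to 0 for the difference in the PD change. After hepatectomy they were 13 to 17 on day 2 and 16 to 20 on day 7 in Pard3WT, 10 to 13 on day 2 in Pard3HMKO, 1 to 3 for the difference, and 0 to 0, 2 to 6 and 11 to 23 between genotypes on days 0, 2 and 7. Where 1 library was left in a group, it was assumed to vary like the other groups.

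Replicate numbers were not taken to pair the libraries, since no label says that they do and not every pair of groups met the limit. Deviations of same-numbered libraries correlated at over 0.1 in 4 of 28 pairs of groups in wild type and 16 of 231 in the lines. In culture 7 of 78 pairs did so and in adults 6 of 15. The highest r was 0.18 in wild type, 0.56 in the lines, 0.24 in culture and 0.35 in adults. In adults same-numbered libraries of some groups did deviate together. For Crot, replicates 1 and 2 held 406 and 904 CPM in Pard3WT and 454 and 900 in Pard3HMKO on day 0. On day 7 they held 390 and 820 in Pard3WT, and replicates 3 and 4 held 403.5 and 862.3. All Pard3HMKO libraries of day 7 held 325.4 to 485.7. On day 2, however, replicates 1 and 2 of Pard3WT held 976 and 904. With the replicate block, counts stayed within 1.5 times of those given, for example 27 for the wild-type slope, 29 at birth, 33 at P0, 35 for PD, 16 on day 2 after hepatectomy in each adult genotype, and 0, 5 and 18 between adult genotypes on days 0, 2 and 7.

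With 2 libraries in most groups, a member that missed the threshold is not shown to be unchanged. Depth limits low members most: Acot3 had 0 reads in 1 Pard3WT control culture.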

Other observations

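Members in the Yap lines have no planned test and are given as values. At E17.5, Acaa2 held 2109 and 2142 CPM in YapWT and 1054 and 919.9 in libraries labelled YapHMKO. In the double line at the same age it held 1990 and 2096 CPM in controls and 927 and 841 in libraries labelled Pard3HMKO YapHMKO. In both sets the labelled libraries held more Yap1 than their controls, 43.6 to 45.2 against 16.49 to 18.7 CPM and 38.3 to 42.2 against 16.1 to 18.1 CPM, so no direction here can be tied to loss of Yap1. Ech1 held 684 and 718 against 333 and 316 CPM, and 688 and 731 against 307 and 256 CPM in the double line. The thioesterase Acot2 was on the other side, at 62.5 and 62.5 in YapWT against 159 and 212 CPM in libraries labelled YapHMKO, and at 88.3 and 77.3 against 176 and 216 CPM in the double line. In each of these, the controls and the libraries labelled YapHMKO did not overlap. At E15.5, where Yap1 itself was low in YapHMKO, Acaa2 held 1006 and 1013 CPM in YapWT and 983 and 977 in YapHMKO.

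In cultures of YapHMKO, PD went with higher levels too. Ehhadh held 17.9 and 28.7 CPM in controls and 2684 and 3545 with PD, Acaa1b 10.2 and 12.4 CPM in controls against 920 and 1399 with PD, and Acot2 375 and 291 CPM against 4731 and 5502.

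Acot2 also differed between control sets with the same stated genotype and age. At E15.5 it held 377 and 301 CPM in Foxa3-Cre Pard3WT and 62.1 and 58.2 in Foxa3-Cre YapWT libraries, while Acaa2 held 843 and 742 CPM in the former and 1006 and 1013 in the latter. The labels give no date or batch for either set.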
